A study of Gallus gallus with 8 samples.

Results

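The genes of DNA and protein methylation form a set of 65 genes, of 13009 genes with a single symbol on the array. They were chosen by symbol: DNA methyltransferases (DNMT), TET dioxygenases, lysine methyltransferases (KMT, SETD, SMYD, NSD, WHSC1, EHMT, SUV39, EZH), their Polycomb partners EED and SUZ12, DOT1L, arginine methyltransferases (PRMT), lysine demethylases (KDM) and numbered PHD-finger genes (PHF). A gene with several probe sets is represented by its brightest, as averaged across the 8 arrays and the rule by symbol uses no difference between tissues. By role, 36 belong to methyltransferases or their complexes and 18 to demethylases and TET enzymes. The other 11 are PHD-finger genes, known mostly as readers of histone marks or as parts of other complexes and not as methylation enzymes. On 21 of the 65 probe sets the suffix _s_at marks probes that can match several transcripts. CARM1, EHMT2 and KDM6B are not analysed here.

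The samples were 4 of cranial neural fold and 4 of ventral neural plate, dissected from chick embryos at stage 8 of Hamburger and Hamilton after incubation at 38 °C, and the labels name no genetic change or drug treatment for either tissue. The neural fold is the raised edge of the plate, where future neural crest lies, and the ventral neural plate lies over the midline. The number of embryos is given as 80 to 114 and the number of samples as 4, with no word on how embryos were divided among samples, so p-values measure only how far these samples scatter, and that scatter may be technical. There was 1 Affymetrix chicken genome array per sample, and the number of arrays limits the precision. Values are normalised log2(intensity + 16), so the changes of dim genes are understated. All changes are neural fold minus neural plate on this log2 scale, with the SE of the limma model.

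Methyl groups on cytosine and on histone lysines and arginines are set by writers, removed by erasers and bound by readers. DNMT3A and DNMT3B place new cytosine methylation, DNMT1 copies it at replication, and TET enzymes oxidise it. On histone H3, methylation of lysine 4 (H3K4) marks active promoters and enhancers, that of lysine 36 (H3K36) marks transcribed gene bodies, and that of lysine 9 (H3K9) or lysine 27 (H3K27) is linked to silencing. In the chick, DNMT3A, the H3K9 demethylase KDM4A and the H3K36 methyltransferase WHSC1L1 (also called NSD3) have been described as needed for expression of neural crest genes, and PHF12 as a partner of SNAI2 in repressing a cadherin gene in premigratory crest.

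The tissues were checked on marker genes, and all 6 neural fold markers were higher in neural fold and all 5 ventral plate markers were lower (limma, adjusted p under 0.05). A probe set counted as above background where it was brighter on that array than 95% of 59 control probe sets without a chicken target. The 4 axial mesoderm markers had summed normalised intensities of 872 to 1352 in neural fold and 10768 to 17134 in neural plate, with 3 of the 4 lower in neural fold and GSC at or below the background limit on all 4 neural fold arrays. Sums for 4 endoderm markers were 1164 to 2148 in neural fold and 2335 to 3554 in neural plate, with 1 lower in neural fold, SOX17. Of the 3 that did not pass, APOA1 had a change of -1.42, while CLDN3 (1.07) and TTR (0.43) went the other way. For CLDN3 all neural fold arrays lay above all neural plate arrays. The 3 non-neural ectoderm markers summed to 4477 to 5026 in neural fold, against 353 to 708 in neural plate, with 2 higher in neural fold. Of 4 neural markers, 2 were lower in neural fold, SOX2 and CDH2, and the 4 summed to 22378 to 24152 in neural fold, against 28572 to 32865 in neural plate. The 6 head mesoderm and blood markers summed to 774 to 1109 in neural fold, against 1388 to 2937 in neural plate, and 0 of the 5 tested passed. For LMO2 (-2.39, limma adjusted p = 0.0504) and TWIST1 (-1.98) all neural fold arrays lay below all neural plate arrays. The tissues overlapped for PRRX1, TAL1 and KDR, whose changes were also below 0. TCF21 went the other way, with a mean of 6.32 in neural fold, against 5.94 in neural plate, and was too dim to be tested. Whether these other tissues bear on the values below was not tested, and in bulk tissue fewer cells of a type and less RNA per cell cannot be told apart. The 10 proliferation markers summed to 83823 to 95855 in neural fold and 92929 to 99587 in neural plate, and 0 of them passed. Arrays numbered 1 differed from the rest in each tissue: their median deposited intensity was 195.7 for neural fold and 182.1 for neural plate. The remaining 6 arrays had medians of 105.3 to 121.6. Without both arrays numbered 1, the change moved by over 0.1 for 10 of the 28 members whose array values or means are given by rule, and its sign turned for 4 of them, as stated beside each.

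No methylation gene passed the test between the tissues. Of 65 genes, 59 lay above the background limit on all 8 arrays, 6 on some arrays and 0 on none, and 64 were bright enough to be tested. Of these 64, 0 were higher and 0 lower in neural fold by limma with Benjamini-Hochberg adjustment over all 23063 tested probe sets, beside 1.75% called among all 10279 tested genes. At an unadjusted p under 0.05, 1 was higher and 3 were lower, 4 of 64 in all, beside 4.01%, 5.06% and 9.07% of all tested genes. The 4 arrays of each tissue did not overlap for 3 members, 1 above and 2 below, beside 3.55% and 4.5%, and 8.06% in either direction, of all tested genes. The median change of the 64 was -0.02 (quartiles -0.17 and 0.10), beside -0.0052 (quartiles -0.18 and 0.15) over all tested genes. The median size of the change, without its sign, was 0.13 for the members and 0.17 over all tested genes. A total of 5 of 64 (7.81%) differed by over 0.5, and 0 of 64 by over 1, which is 2-fold, while 14.4% and 3.76% of all tested genes did.

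The 95% interval of the change lay within 2-fold in both directions for 51 of 64 members, beside 68.6% of all tested genes. With the replicate number as a block it did so for 57 of 64, beside 79.3% of all tested genes. For the remaining 13 in the fit without the block, a 2-fold difference in at least 1 direction lies inside the interval. KMT2D, a large H3K4 methyltransferase gene, had the widest interval of the 64 (-1.52 to 1.44), and it was above background on 2 arrays of each tissue. Its change was -0.04, and 0.42 without both arrays numbered 1. These intervals are those of single genes, without adjustment for their number.

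**Figure D1:**
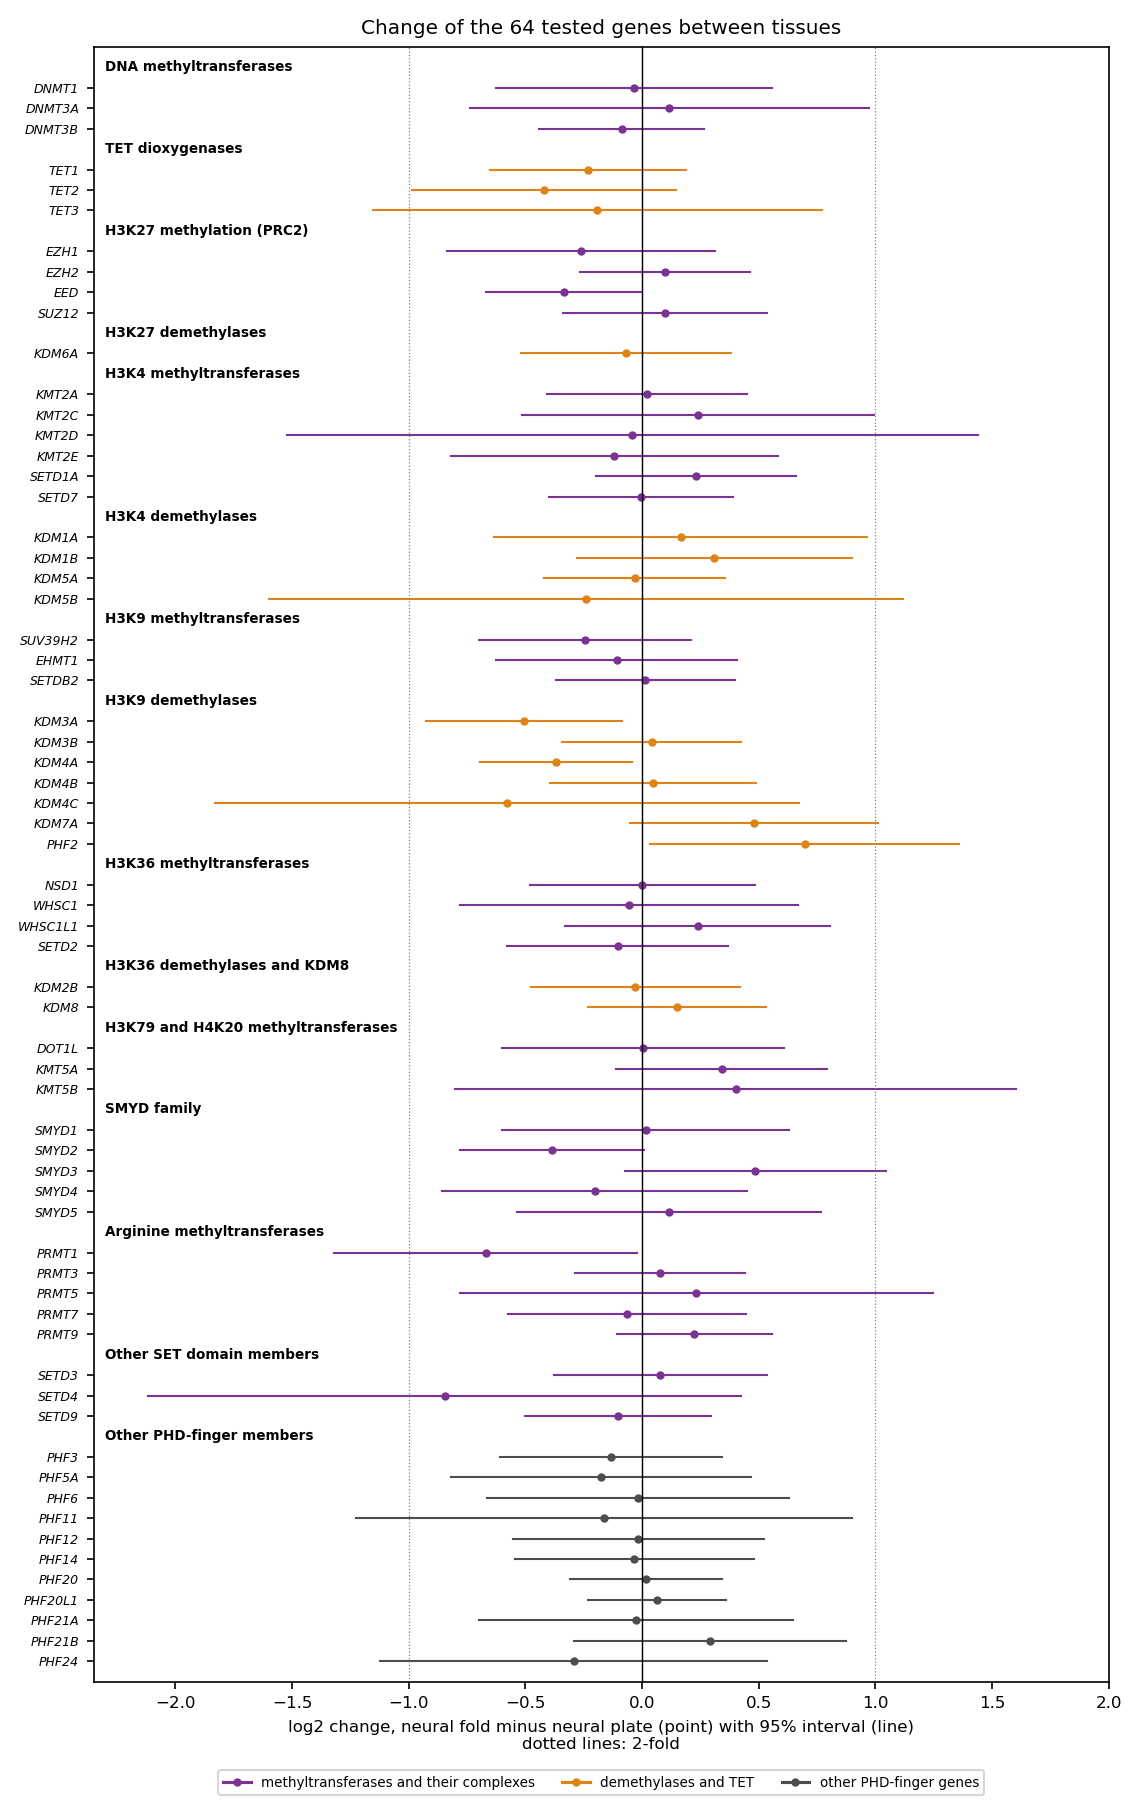
The log2 change between neural fold and neural plate of the 64 tested genes, by role, with points for the estimate and lines for the 95% interval of the limma fit. Intervals of 60 of the 64 genes cross 0, and those of KDM3A, KDM4A, PRMT1 (below 0) and PHF2 (above 0) do not before adjustment.

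Of 7 tested H3K9 demethylases, 3 had an unadjusted p under 0.05, beside 9.07% of all tested genes. This role was placed first, out of the planned order, with its values known, so its share is no result about the role. Over all 64 tested members, 1 was higher and 3 were lower at that threshold. The 3 H3K9 demethylases, of these 4 members, lay on both sides of 0, and 0 of the 7 passed after adjustment. KDM3A, which removes H3K9 mono- and dimethylation, had values of 10.91, 11.27, 11.16 and 11.21 in neural fold, against 11.24, 11.80, 11.69 and 11.85 in neural plate. All neural fold arrays but number 2 lay below every neural plate array, and neural fold array 2 exceeded only neural plate array 1. The change was -0.51 ± 0.18 (95% interval -0.93 to -0.09, limma adjusted p = 0.421), and it was -0.57 ± 0.10 without both arrays numbered 1 (adjusted p = 0.058). A fit with a term for the arrays numbered 1 called KDM3A lower in neural fold (adjusted p = 0.039), the only member it called, beside 2.67% of all tested genes called lower by that fit. Its other tested probe sets had changes of -0.59 and -0.29, so all 3 lay below 0.

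KDM4A, a demethylase of H3K9 and H3K36 trimethylation, had values of 10.997, 10.94, 10.93 and 11.06 in neural fold, against 11.34, 11.13, 11.47 and 11.46 in neural plate. The tissues did not overlap, with neural plate array 2 the closest to neural fold. The change was -0.37 ± 0.14 (95% interval -0.69 to -0.04, adjusted p = 0.486). Its other probe sets had changes of 0.03 and -0.16, and the mean over all KDM4A probe sets differed by -0.16 (adjusted p = 0.91).

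PHF2, a PHD-finger H3K9 demethylase, had values of 8.19, 8.18, 8.04 and 8.63 in neural fold, against 6.72, 7.81, 7.81 and 7.92 in neural plate. Every neural fold array lay above every neural plate array, and neural plate array 1 lay far below the rest. PHF2 has 3 probe sets, and only this 1 was bright enough to be tested. The change was 0.70 ± 0.29 (95% interval 0.03 to 1.36, adjusted p = 0.554) and 0.44 ± 0.17 without both arrays numbered 1. KDM7A, a demethylase of H3K9 and H3K27 from the same subfamily as PHF2, had values of 8.46, 7.88, 8.03 and 8.13 in neural fold, against 8.20, 7.63, 7.35 and 7.40 in neural plate. Within each tissue array 1 was the highest, and the tissues overlapped only through neural plate array 1. KDM7A differed by 0.48 ± 0.23 (adjusted p = 0.688). How many of all tested genes overlap through 1 array alone was not counted. Such overlap, also seen for KDM3A, KDM1A, WHSC1L1 and SMYD2, is therefore not read as a tissue difference.

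Among other H3K9 demethylases, KDM4B differed by 0.05 ± 0.19 (-0.09 ± 0.14 without both arrays numbered 1), with 9.39 ± 0.31 in neural fold, against 9.34 ± 0.17 in neural plate (SD, n = 4). KDM3B differed by 0.04 ± 0.17 and KDM4C by -0.58 ± 0.55. KDM4C lay above background on 2 arrays of each tissue, and its change was -0.06 without neural fold array 1 and -0.18 without both arrays numbered 1. Of the 3 H3K9 methyltransferases, EHMT1, which sets H3K9 mono- and dimethylation, averaged 11.02 ± 0.21 in neural fold, against 11.13 ± 0.40 in neural plate (SD, n = 4), a change of -0.11 ± 0.23. SUV39H2, a writer of H3K9 trimethylation, differed by -0.24 ± 0.20 and SETDB2 by 0.01 ± 0.17. None of these 6 passed the threshold.

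**Figure D2:**
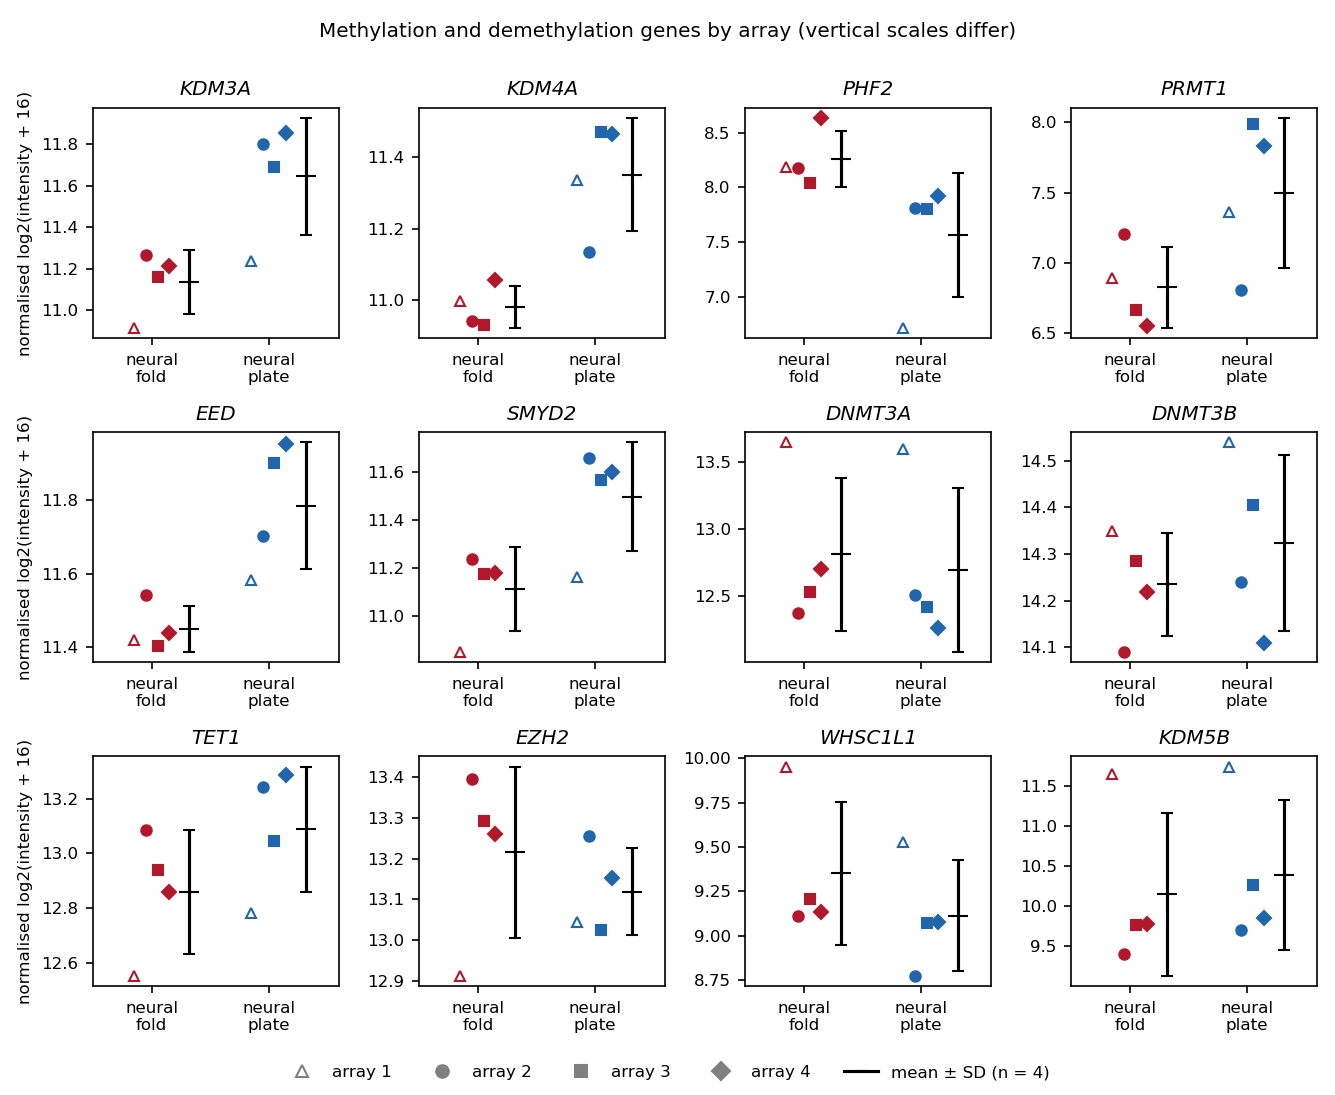
Normalised log2(intensity + 16) of 12 methylation genes on each array, neural fold in red and neural plate in blue, with the array number as the symbol and the mean ± SD of 4 arrays in black. KDM4A, EED and PHF2 do not overlap between tissues, while DNMT3A, WHSC1L1 and KDM5B differ mainly between the arrays numbered 1 and the others.

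The Polycomb repressive complex that writes H3K27 methylation was measured through its catalytic subunits EZH1 and EZH2 and the core subunits EED and SUZ12. EED, which binds the mark, had values of 11.42, 11.54, 11.40 and 11.44 in neural fold, against 11.58, 11.70, 11.90 and 11.95 in neural plate. All 4 neural fold arrays lay below all 4 neural plate arrays. The change was -0.33 ± 0.15 (95% interval -0.67 to 0.00, adjusted p = 0.605), and the second EED probe set differed by -0.03. EZH2 had values of 12.91, 13.40, 13.29 and 13.26 in neural fold, against 13.04, 13.26, 13.02 and 13.15 in neural plate. The tissues overlapped, since neural fold array 1 was the lowest of all 8, and the change was 0.10 ± 0.16 (95% interval -0.27 to 0.46, adjusted p = 1.00). SUZ12 averaged 10.81 ± 0.21 in neural fold, against 10.71 ± 0.27 in neural plate (SD, n = 4), a change of 0.10 ± 0.19. EZH1 averaged 7.48 ± 0.41 in neural fold, against 7.74 ± 0.32 in neural plate (SD, n = 4), a change of -0.26 ± 0.25. The H3K27 demethylase KDM6A had values of 9.50, 8.65, 8.89 and 8.998 in neural fold, against 9.05, 9.12, 9.13 and 9.01 in neural plate. Its tissues overlapped, with the highest and the lowest value both in neural fold, and it differed by -0.07 ± 0.20 (adjusted p = 1.00), and by -0.24 ± 0.13 without both arrays numbered 1.

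The 3 DNA methyltransferases did not pass the threshold. DNMT3A had values of 13.64, 12.37, 12.52 and 12.70 in neural fold, against 13.60, 12.50, 12.41 and 12.26 in neural plate. Array 1 was the highest in each tissue, well above every other array, and the other 6 arrays overlapped. The change was 0.12 ± 0.37 (95% interval -0.74 to 0.97, adjusted p = 1.00) and 0.14 ± 0.13 without both arrays numbered 1. DNMT3B had values of 14.35, 14.09, 14.29 and 14.22 in neural fold, against 14.54, 14.24, 14.40 and 14.11 in neural plate. They overlapped, with the highest value in neural plate and the lowest in neural fold, with a change of -0.09 ± 0.15 (95% interval -0.44 to 0.27, adjusted p = 1.00). DNMT1, measured by 1 probe set, had values of 8.48, 8.47, 8.61 and 8.66 in neural fold, against 9.30, 8.24, 8.66 and 8.13 in neural plate. Neural plate array 1 was the highest and neural plate array 4 the lowest, so neural fold lay inside the range of neural plate, and the change was -0.03 ± 0.26 (95% interval -0.62 to 0.56, adjusted p = 1.00). Without both arrays numbered 1 it was above 0, at 0.23 ± 0.17.

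None of the 3 TET genes passed. All 3 changes were below 0 over all arrays, but that of TET3 was above 0 without both arrays numbered 1 (0.05 ± 0.27) or without neural plate array 1 alone (0.20). TET2 had values of 8.01, 8.82, 8.65 and 9.13 in neural fold, against 8.87, 8.98, 9.16 and 9.28 in neural plate. Neural fold array 1 was the lowest, and the other 7 arrays overlapped, with a change of -0.42 ± 0.25 (95% interval -0.99 to 0.14, adjusted p = 0.828), and -0.27 ± 0.16 without both arrays numbered 1. TET1 had values of 12.55, 13.09, 12.94 and 12.86 in neural fold, against 12.78, 13.24, 13.04 and 13.29 in neural plate, a change of -0.23 ± 0.18 (adjusted p = 0.967). At each array number neural fold lay below neural plate for both genes, although the ranges of the tissues overlapped. The 3 tested probe sets of TET1 had changes of -0.23 to -0.08, whereas those of TET2 ran from -0.42 to 0.27. TET3 had values of 8.20, 7.58, 7.59 and 7.62 in neural fold, against 9.13, 7.67, 8.01 and 6.96 in neural plate. Neural plate held both the highest and the lowest TET3 value, and the change was -0.19 ± 0.42 (adjusted p = 1.00).

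Of the 6 H3K4 methyltransferases and 4 H3K4 demethylases, 0 passed in either direction. SETD7, a lysine methyltransferase first described on H3K4, averaged 8.76 ± 0.28 in neural fold, against 8.77 ± 0.04 in neural plate (SD, n = 4), a change of -0.01 ± 0.17 (95% interval -0.40 to 0.39), and 0.09 ± 0.16 without both arrays numbered 1. KMT2A, the founding member of the MLL family, differed by 0.02 ± 0.19 and KMT2C, which acts at enhancers, by 0.24 ± 0.33. That was the highest change among the 7 tested KMT2C probe sets, of which 2 lay above 0 and 5 below. KMT2E, whose methyltransferase activity is disputed, differed by -0.12 ± 0.31 and SETD1A by 0.23 ± 0.19. The demethylase KDM1A, also called LSD1, had values of 12.71, 11.60, 11.86 and 11.67 in neural fold, against 12.65, 11.60, 11.60 and 11.34 in neural plate. Array 1 was the highest in each tissue, and the ranges overlapped only through neural plate array 1. Among the other 6 arrays neural fold lay above neural plate, but barely, with a lowest neural fold value of 11.603 against a highest neural plate value of 11.600. At each array number neural fold exceeded neural plate for KDM1A, by as little as 0.007. Its change was 0.17 ± 0.35 (95% interval -0.63 to 0.96), with 3 tested probe sets at 0.17 to 0.29. KDM1B differed by 0.31 ± 0.26, KDM5A by -0.03 ± 0.17 and KDM5B by -0.24 ± 0.59, with array 1 the highest of each tissue for KDM5B.

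The 4 H3K36 methyltransferases had changes of -0.10 to 0.24, and 0 passed. WHSC1L1 had values of 9.95, 9.11, 9.21 and 9.14 in neural fold, against 9.53, 8.77, 9.07 and 9.08 in neural plate. Array 1 was the highest in each tissue, neural fold exceeded neural plate at each array number, and the ranges overlapped only through neural plate array 1. The change of WHSC1L1 was 0.24 ± 0.25 (95% interval -0.33 to 0.81, adjusted p = 1.00, and 0.428 with the replicate block). NSD1 had values of 8.70, 8.67, 8.52 and 8.35 in neural fold, against 8.79, 8.87, 8.52 and 8.05 in neural plate, a change of 0.00 ± 0.21 (95% interval -0.48 to 0.48). WHSC1, also called NSD2, had values of 8.81, 9.85, 9.80 and 9.49 in neural fold, against 8.80, 9.79, 9.86 and 9.73 in neural plate, a change of -0.06 ± 0.32 (95% interval -0.78 to 0.67). The tissues overlapped for both genes, the neural fold values of NSD1 lay within the range of neural plate, and array 1 was the lowest of each tissue for WHSC1. SETD2, the H3K36 trimethylase, differed by -0.10 ± 0.21. The H3K36 demethylase KDM2B differed by -0.03 ± 0.20 and KDM8, a JmjC-domain oxygenase first described as an H3K36 demethylase, by 0.15 ± 0.17. KDM2A, also an H3K36 demethylase, was too dim to be tested. Its values were 7.66, 6.61, 5.24 and 6.80 in neural fold, against 7.69, 4.78, 5.15 and 5.07 in neural plate, above background on 3 neural fold arrays and 1 neural plate array.

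DOT1L, the H3K79 methyltransferase, had values of 7.93, 8.94, 8.69 and 8.80 in neural fold, against 8.63, 8.54, 8.19 and 8.97 in neural plate. The tissues overlapped, and the change was 0.00 ± 0.26 (95% interval -0.60 to 0.61), and 0.24 ± 0.21 without both arrays numbered 1. KMT5A, which sets H4K20 monomethylation, had values of 8.37, 7.93, 7.83 and 7.90 in neural fold, against 7.29, 7.83, 7.89 and 7.66 in neural plate. Neural plate array 1 was the lowest and neural fold array 1 the highest, while the remaining 6 lay between 7.66 and 7.93. KMT5A differed by 0.34 ± 0.20 (adjusted p = 0.822), and by 0.09 ± 0.11 without both arrays numbered 1. KMT5B, an H4K20 di- and trimethylase, differed by 0.40 ± 0.53 with array 1 the lowest of each tissue.

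The SMYD genes encode SET and MYND domain methyltransferases that act on histones and on other proteins. SMYD2 had values of 10.85, 11.24, 11.17 and 11.18 in neural fold, against 11.16, 11.66, 11.57 and 11.60 in neural plate. At each array number neural fold was lower, by 0.31 to 0.42, and the ranges overlapped only through neural plate array 1. The change was -0.39 ± 0.17 (95% interval -0.78 to 0.01, adjusted p = 0.626, and 0.171 with the replicate block). SMYD3 had values of 8.84, 8.85, 8.37 and 8.66 in neural fold, against 7.53, 8.33, 8.46 and 8.45 in neural plate. Neural plate array 1 lay below the other 7, and the change was 0.49 ± 0.25 (adjusted p = 0.73), against 0.21 ± 0.15 without both arrays numbered 1. SMYD1, known from heart and skeletal muscle, differed by 0.02 ± 0.27, SMYD4 by -0.20 ± 0.29 and SMYD5 by 0.12 ± 0.29.

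Among 5 arginine methyltransferases, PRMT1, which makes asymmetric dimethylarginine, had values of 6.89, 7.20, 6.66 and 6.55 in neural fold, against 7.36, 6.80, 7.99 and 7.83 in neural plate. Neural plate array 2 lay inside the range of neural fold, and the other 3 neural plate arrays lay above it. PRMT1 was dim in neural fold, and on neural fold arrays 3 and 4 it only just exceeded the background limit. That limit was lowest on neural plate arrays 3 and 4, where PRMT1 was highest. The change was -0.67 ± 0.28 (95% interval -1.32 to -0.02, adjusted p = 0.575). PRMT5, the main symmetric arginine methyltransferase, had values of 13.07, 11.39, 11.56 and 11.54 in neural fold, against 12.58, 11.51, 11.38 and 11.17 in neural plate. Array 1 was the highest in each tissue and the other 6 arrays overlapped, with a change of 0.23 ± 0.44 (95% interval -0.78 to 1.25), and 0.15 ± 0.13 without both arrays numbered 1. PRMT3, PRMT7 and PRMT9 differed by 0.08 ± 0.16, -0.06 ± 0.22 and 0.22 ± 0.14. Among the other SET domain genes, SETD3, which methylates a histidine of actin, differed by 0.08 ± 0.20 and SETD9 by -0.10 ± 0.17. SETD4 differed by -0.85 ± 0.56, which was the largest change in size among the 64 (95% interval -2.12 to 0.42). Neural fold array 4, at 4.84, was the only array on which SETD4 lay below background, and the other 7 lay between 6.79 and 7.83. Without that array the change was -0.26.

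The 11 other PHD-finger genes had changes of -0.29 to 0.29, with 3 above 0 and 8 below, and 0 passed. PHF12 averaged 9.99 ± 0.27 in neural fold, against 10.01 ± 0.39 in neural plate (SD, n = 4), a change of -0.02 ± 0.23 (95% interval -0.55 to 0.52). PHF21B differed by 0.29 ± 0.25, and neural fold exceeded neural plate at each array number. PHF5A, a splicing factor subunit, differed by -0.18 ± 0.28, with neural fold lower at each array number. PHF20, a subunit of a histone acetyltransferase complex, differed by 0.02 ± 0.14 and PHF6 by -0.02 ± 0.28.

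Differences at each array number were also compared, although same-numbered arrays of the tissues resembled each other clearly more than differently numbered ones at number 1 alone. All 4 numbers differed in the same direction for 21 of 64 members (32.8%), 9 with neural fold higher and 12 lower, beside 28.6% of all tested genes. The block narrowed the median SE of the members to 0.13, against 0.23 without it. With the block, 4 members were higher and 5 lower at an unadjusted p under 0.05, beside 6.7% and 8.75% of all tested genes, and 0 passed after limma's adjustment, beside 2.3% of all tested genes. The smallest blocked adjusted p was that of KDM3A (0.128), followed by SMYD2 (0.171) and KDM7A (0.227).

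The difference between the arrays numbered 1 and the other arrays exceeded the difference between tissues in size for 56 of 64 members (87.5%), as it did for 74.7% of all tested genes. In the limma fit with tissue and array number 1 as terms, 14 members were higher and 17 lower on the arrays numbered 1, 31 of 64 (48.4%), beside 39.4% of all tested genes. For 38 of 64 members (59.4%) both arrays numbered 1 lay outside the range of the other 6, beside 47.4%. KDM5B had values of 11.65, 9.41, 9.76 and 9.77 in neural fold, against 11.74, 9.70, 10.26 and 9.85 in neural plate. Both arrays numbered 1 lay over 1 above every other array, and the difference was 1.90 ± 0.18 (adjusted p = 0.0011). PRMT5 differed by 1.40 ± 0.14, DNMT3A by 1.16 ± 0.13 and KDM1A by 1.07 ± 0.13, all higher on the arrays numbered 1. In the other direction, KMT5B differed by -1.60 ± 0.25, PHF11 by -1.37 ± 0.25 and WHSC1 by -0.95 ± 0.13. The median size was 0.48 for members and 0.45 over all tested genes, against tissue differences of 0.13 and 0.17. What sets these arrays apart is not given in the sources used here.

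**Figure D3:**
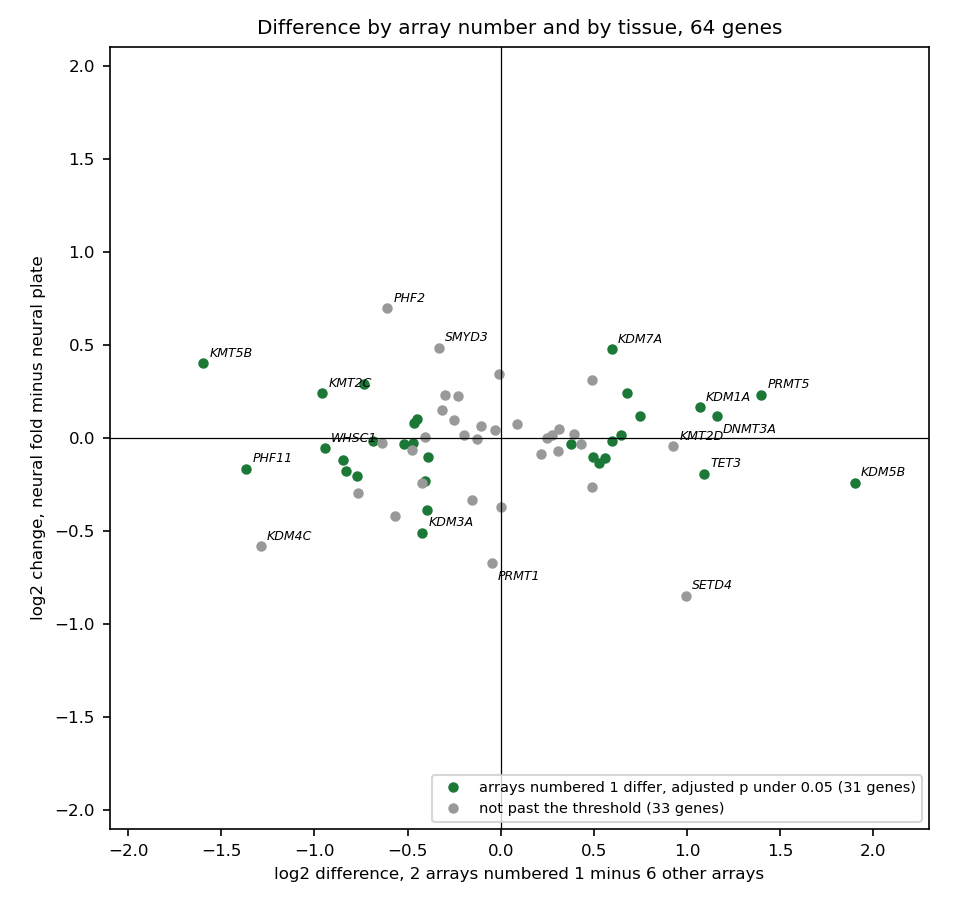
For each of the 64 tested genes, the log2 difference between the 2 arrays numbered 1 and the 6 others (horizontal) and the log2 change between neural fold and neural plate (vertical), on equal scales. The points spread from -1.60 to 1.90 along the horizontal axis and from -0.85 to 0.70 along the vertical axis, and the 31 green points passed the adjusted threshold for array number.

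Several probe sets per gene gave a further view of the same RNA. The 65 members had 183 probe sets, and 52 members had more than 1. Of the 183, 150 were tested and 0 passed in either direction, beside 1.28% of all tested probe sets, while 3 were higher and 4 lower at an unadjusted p under 0.05, beside 3.86% and 4.39%. Among 45 members with more than 1 tested probe set, all changes had the same sign in 17. That is a smaller share than the 52.4% among all genes with more than 1 tested probe set. The shares were not matched for the number of probe sets per gene. The 6 tested probe sets of DOT1L had changes of -0.54 to 0.91, the 7 of KMT2C of -0.89 to 0.24 and the 5 of NSD1 of -0.35 to 0.64. WHSC1L1 had 4, at -0.07 to 0.26. The largest change among the 150 was 1.08, for a SETD1A probe set that was above background on 4 neural fold arrays and 2 neural plate arrays, and it did not pass (limma adjusted p = 0.60).

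**Figure D4:**
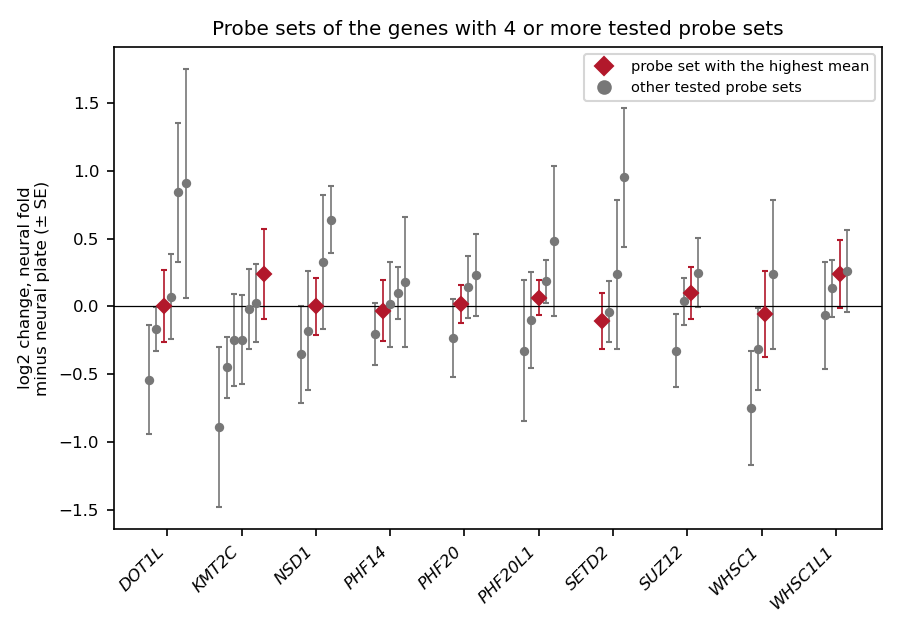
The log2 change ± SE of each tested probe set for the 10 genes with 4 or more of them, with the probe set of highest mean as a red diamond. Each of the 10 genes has probe sets on both sides of 0, and 0 of those drawn passed the adjusted threshold.

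Partner genes of the same pathways gave a single call. The 53 measured partners included methyl donor enzymes, methyl-CpG readers, Polycomb and H3K4 complex subunits and heterochromatin proteins. Others were demethylase and arginine methylation partners, PR domain genes and further lysine methyltransferases. Of the 53, 49 were tested, and 1 was higher and 0 lower in neural fold, beside 0.924% and 0.827% of all tested genes. PRDM1, also called BLIMP1, is a PR domain repressor known to act at the neural plate border in zebrafish. It had values of 8.74, 8.68, 8.11 and 8.60 in neural fold, against 6.76, 7.41, 6.60 and 6.997 in neural plate. All neural fold arrays lay above all neural plate arrays, and the change was 1.59 ± 0.23 (limma adjusted p = 0.014). The call was lost without both arrays numbered 1 (adjusted p = 0.051), as it was on leaving out neural fold array 2 (0.063) or 4 (0.061), or neural plate array 3 (0.054) or 4 (0.058), with changes of 1.46 to 1.61 in these 5 fits. Further partners passed only with a term for the arrays numbered 1 and were picked after their values were seen. PRDM12, above background on 1 neural plate array, and PRDM15 had changes of 1.04 ± 0.23 (adjusted p = 0.097) and 0.69 ± 0.16 (0.122), and UHRF1, the partner of DNMT1 at replication, one of -0.58 ± 0.20 (0.4), all without that term. With the mean over a gene's probe sets the direction turned for both PRDM15 (-0.11 ± 0.25) and UHRF1 (0.03 ± 0.20). The median change of the 49 partners was 0.01.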

How the data were processed

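Total RNA of 4 neural fold and 4 neural plate samples was labelled from 6 µg and hybridised to 1 array each, per the labels' protocols. The deposited table holds linear intensity values, 1 for each probe set on each array, and GCOS is the tool named per the submitters' processing notes. Its version and settings are not given in the sources used here. All arrays had a 2% trimmed mean of 499 to 500, so they appear scaled to 1 target. Of 38535 probe sets, 96 were controls, 27168 had 1 gene symbol, 177 several and 11094 none in the platform annotation.

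A pseudocount of 16 was added, log2 taken and arrays quantile-normalised, because their medians differed by over 0.5. Probe sets below the 40th percentile of the mean over all 8 arrays were left out, leaving 23063. Tissues were compared with limma 3.58.1 in R 4.3.3 (lmFit, eBayes), with Benjamini-Hochberg adjustment over all tested probe sets and a threshold of 0.05. The fit was tested on simulated data. Array numbers come from the sample titles. Deviations from the tissue means correlated at 0.62, 0.19, 0.29 and 0.21 between same-numbered arrays, and all 4 exceed 0.1. The main fit did not pair the samples, and the number entered as a block only in the alternative fit with the replicate block. Number 1 alone stood out, since differently numbered arrays among numbers 2 to 4 correlated at 0.08 to 0.28. Any pairing by number rests on the data, since the labels do not say what a number stands for. Alternatives were the filter, pseudocount, scaling, an intensity trend, the replicate block, the arrays numbered 1, each array left out and the mean over a gene's probe sets.

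Members named were those past the threshold, the 10 with the smallest adjusted p otherwise, and a fixed set of core enzymes. Others were named to cover each role, and KDM4C, KMT2D, KMT5B, SETD4 and KDM5B were singled out after their values were seen. Members and lists were chosen with earlier results of these data known.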

Additional observations from a re-analysis of the deposited data

Results flagged for a closer look

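In 18 of 130 groups of 4 arrays (65 genes in 2 tissues), 1 array lay farther from the others than Dixon's 95% critical value for 4 values (0.829) allows. Chance gives about 1 such group in 20. That was 13.8% of the groups, beside 11.6% of the 26018 groups over all genes. The groups over all genes come from 13009 genes, of which 10279 were bright enough to be tested, while 64 of the 65 members were. On 17 of the 18 the separate array was the one numbered 1 (94.4%), as it was for 77.7% of the groups found over all genes. Values are normalised log2 intensities, with the range of the other 3 arrays of that tissue in parentheses. Array 1 was higher for KDM2A in neural plate at 7.69 (4.78 to 5.15), KDM5A in neural fold at 10.59 (10.11 to 10.17), KDM5B in neural fold at 11.65 (9.41 to 9.77), PHF12 in neural fold at 10.40 (9.84 to 9.88), PRMT5 in neural fold at 13.07 (11.39 to 11.56), TET3 in neural fold at 8.20 (7.58 to 7.62) and WHSC1L1 in neural fold at 9.95 (9.11 to 9.21). Array 1 was lower for PHF11 in neural fold at 6.85 (8.72 to 8.86), PHF2 in neural plate at 6.72 (7.81 to 7.92), PHF20 in neural fold at 11.74 (11.91 to 11.94), PHF21B in neural fold at 9.45 (10.20 to 10.33), PHF5A in neural plate at 12.41 (13.17 to 13.30), SETD3 in neural fold at 9.86 (10.20 to 10.27), SMYD2 in neural fold at 10.85 (11.17 to 11.24), SMYD3 in neural plate at 7.53 (8.33 to 8.46), SMYD4 in neural fold at 8.31 (9.35 to 9.51) and WHSC1 in neural plate at 8.80 (9.73 to 9.86). The exception was PRMT3, where neural fold array 2 had 9.27, against 9.68 to 9.72 on the other neural fold arrays.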

How the results depend on the processing

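Of the 64 members, 0 were called higher and 0 lower under each other setting tried except the fit with a term for the arrays numbered 1, which called 1 lower (KDM3A) and 0 higher. Over all probe sets, calls numbered 160 higher and 135 lower in neural fold. With no filter 89 were lower, and calls higher in neural fold made up 56.6% of all calls, against 54.2% in the main fit. Median centring gave 90 higher and 61 lower. Calls numbered 257 higher and 283 lower without both arrays numbered 1, and 386 higher and 477 lower with the term for them. Leaving out 1 array at a time gave 86 to 162 higher and 49 to 141 lower. Partner calls, 1 higher and 0 lower, became 0 higher without both arrays numbered 1, 3 higher and 1 lower with the term, and 0 to 1 higher leaving out 1 array. With the replicate block, 197 probe sets were higher and 201 lower, and it changed no call of a member or partner. The cause of these shifts was not tested. The sign of the change was kept under every setting for 24 of 64 members and turned in at least 1 setting for the other 40, so directions of small changes are not settled. With the mean over a gene's probe sets, the change moved by over 0.1 for 9 of 28 named members, to -0.13 for TET2, -0.22 for KDM4B, -0.05 for EZH1, -0.16 for KDM4A, 0.19 for DOT1L, -0.22 for WHSC1, -0.18 for EED, 0.49 for KMT5A and -0.04 for EZH2. The signs of KDM4B and EZH2 turned. Depth is not defined for arrays, and 6 members lay at or below the background limit on some arrays.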

Other observations

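Probe sets of the same gene differed in opposite directions on the arrays numbered 1 for 6 of 45 members with more than 1 tested probe set (13.3%), beside 6% of all such genes (291 of 4852). They were KDM5B, KMT2C, NSD1, PHF3, SETD9 and WHSC1L1, picked after their values were seen. The shares of 13.3% and 6% were not matched for the number of probe sets per gene. In the limma fit with tissue as a term, KDM5B probe sets were higher on the arrays numbered 1 by 1.90 ± 0.18 and 0.91 ± 0.17, while another was lower (-1.21 ± 0.25, adjusted p = 0.0097). WHSC1L1 probe sets differed by 0.87 ± 0.15, 0.68 ± 0.13, 0.11 ± 0.23 and -1.09 ± 0.25, of which all but the one at 0.11 passed. For PHF3 the differences were 0.53 ± 0.12 and -0.79 ± 0.17.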
